A study of Mus musculus with 6 samples.

Results

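The nuclear genes of the mitochondrial respiratory chain were compared between the whole brains of hSRY-ON and hSRY-OFF mice. They were chosen by gene symbol, which had to begin with Ndufa, Ndufb, Ndufc, Ndufs, Ndufv, Uqcr, Cox4 to Cox8 or Atp5, or to be one of Sdha to Sdhd. The rule found 95 of the 25697 probes on the array and 77 of its 18138 gene symbols. Of the 95 probes, 83 passed the detection filter (a detection p-value below 0.05 on 3 or more of 6 arrays) and were tested, and they covered 69 symbols. Nearly all of the chosen genes encode subunits of complexes I to V. The exceptions were the complex I assembly factor Ndufaf1 and Cox4nb, Cox7a2l, Atp5s and Atp5sl, which share the naming pattern without being subunits. Counts over all 83 probes include the 6 tested probes of these 5 symbols, and the counts of the complexes do not.

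The respiratory chain sits in the inner mitochondrial membrane. Complexes I and II pass electrons from NADH and succinate to ubiquinone, complex III hands them on to cytochrome c, and complex IV gives them to oxygen. The proton gradient built on the way drives the ATP synthase, complex V, and neurons depend on this supply for firing and synaptic transmission. Most subunits are encoded in the nucleus and imported, and several complex IV subunits exist as alternative forms for heart and skeletal muscle, lung or testis.

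The mice were male FVB/N pups at postnatal day 6, with 3 arrays in each group. By the paper's definition of hSRY-OFF, both groups carried the Signalox-hSRY transgene, integrated as a single copy at the H11 locus and driven by the ubiquitous CAG promoter. The paper also describes littermates without this transgene as controls. It does not state the mothers or litters of the arrayed hSRY-OFF mice, so mother, litter and genotype cannot be told apart here. In hSRY-OFF mice the floxed DsRed2 cassette was intact, so that DsRed2 was made and the FLAG-tagged human SRY with its IRES-EGFP was silent. In hSRY-ON mice Cre from the oocyte of a Ddx4-Cre mother had removed the cassette at the single-cell stage, so the change was present throughout the body, and the animals used for the arrays did not themselves carry Ddx4-Cre. The hSRY-ON pups were growth-retarded and in poor health, which limits them as a model of a change in the brain alone. Values are normalized log2 signals of Illumina MouseRef-8 bead arrays, on which a probe's brightness reads the amount of its transcript, and a positive log2 fold change means a higher signal in hSRY-ON.

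Across the whole array, 14215 probes were tested and 308 of them (120 higher, 188 lower) were called at an adjusted p under 0.05 (limma with Benjamini-Hochberg adjustment). Without hSRY-OFF array 1 or 3 or hSRY-ON array 2, and with the replicate block, 0 were called, and without hSRY-OFF array 2 or hSRY-ON array 1 only 1 was. Between 13816 and 14377 probes were detected per array. The label of brain tissue was met by the neuronal markers Stmn2, Syt1 and Tubb3 and by 12 of 12 myelin probes, which were detected on all 6 arrays, whereas the probe for Snap25 was below background on all 6. Several marker lists differed between the groups. Markers of dividing cells were called lower at 3 of 4 tested probes, myelin markers at 2 of 12 and astrocyte markers at 2 of 7 (limma adjusted p under 0.05, against 2.17% of all tested probes), and 0 of 3 neuronal probes were called. Before adjustment p was under 0.05 for 4 of 4 probes of dividing cells, 8 of 12 of myelin, 3 of 7 of astrocytes and 0 of 3 of neurons (against 20.9% of all tested probes), and the log2 fold change was below 0 for 4, 11, 5 and 2 of them. The summed log2 level of the myelin list was 14.71 to 15.11 in hSRY-OFF and 14.35 to 14.39 in hSRY-ON, and that of dividing cells 10.84 to 11.08 and 9.76 to 10.36, whereas that of astrocytes overlapped (14.62 to 14.67 and 14.48 to 14.69). The limma test called 0 probes of the endothelial, oligodendrocyte precursor, choroid plexus and microglia lists (7 of 19 under 0.05 before adjustment). Their summed levels did not overlap, being lower in hSRY-ON for the endothelium (12.22 to 12.36 and 11.83 to 12.10) and oligodendrocyte precursors (13.03 to 13.15 and 12.85 to 13.00) and higher for the choroid plexus (13.80 to 14.07 and 14.10 to 14.42) and, by the least, microglia (10.75 to 10.78 and 10.78 to 10.97). By single probe, 2 of 5 endothelial probes were above 0, among them the wholly higher Flt1 at 0.49 (limma adjusted p 0.131), as were 1 of 4 of oligodendrocyte precursors, 4 of 7 of microglia and 3 of 3 of the choroid plexus. The part of these differences in the values below was not tested.

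Differences in the respiratory chain genes were small. Of the 83 tested probes, 1 passed the threshold (1.20%, against 2.17% of all tested probes), and this was Cox7a1, which was lower in hSRY-ON. An unadjusted p under 0.05 was reached by 5 probes (6.02%), 2 higher and 3 lower, against 20.9% of all tested probes. This gap depended on the fit. With a trend and a robust prior for the spread the limma shares were 22.9% and 24.1%, and without background correction 15.7% and 24%. The respiratory chain probes were also brighter, with a median log2 signal of 12.5 against 8.53. The shares were 2.22% and 11.5% at a mean log2 signal of at least 12, and 10.5% and 21.8% below it. This division was made after the values were seen. The log2 fold changes of the 83 probes had a median of -0.030 (quartiles -0.10 and 0.064), and those of the whole array 0.0048 (quartiles -0.14 and 0.14). The 95% confidence interval lay within a 1.5-fold change in either direction for 73 of the 83 probes (88.0%), and for 73.8% of all tested probes. At like signal these shares were close, with 100% and 98.8% at 12 or more and 73.7% and 71.6% below 12. The other 10 of the 83 probes had wider or shifted intervals, and they were those of Cox7a1, Cox7a2, Cox7b, Atp5a1, Atp5e, Ndufb2, Ndufb4, Ndufb5, 1 probe of Ndufb11 and 1 of Ndufs4. In whole tissue, fewer cells of a type and less RNA per cell cannot be told apart.

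**Figure D1:**
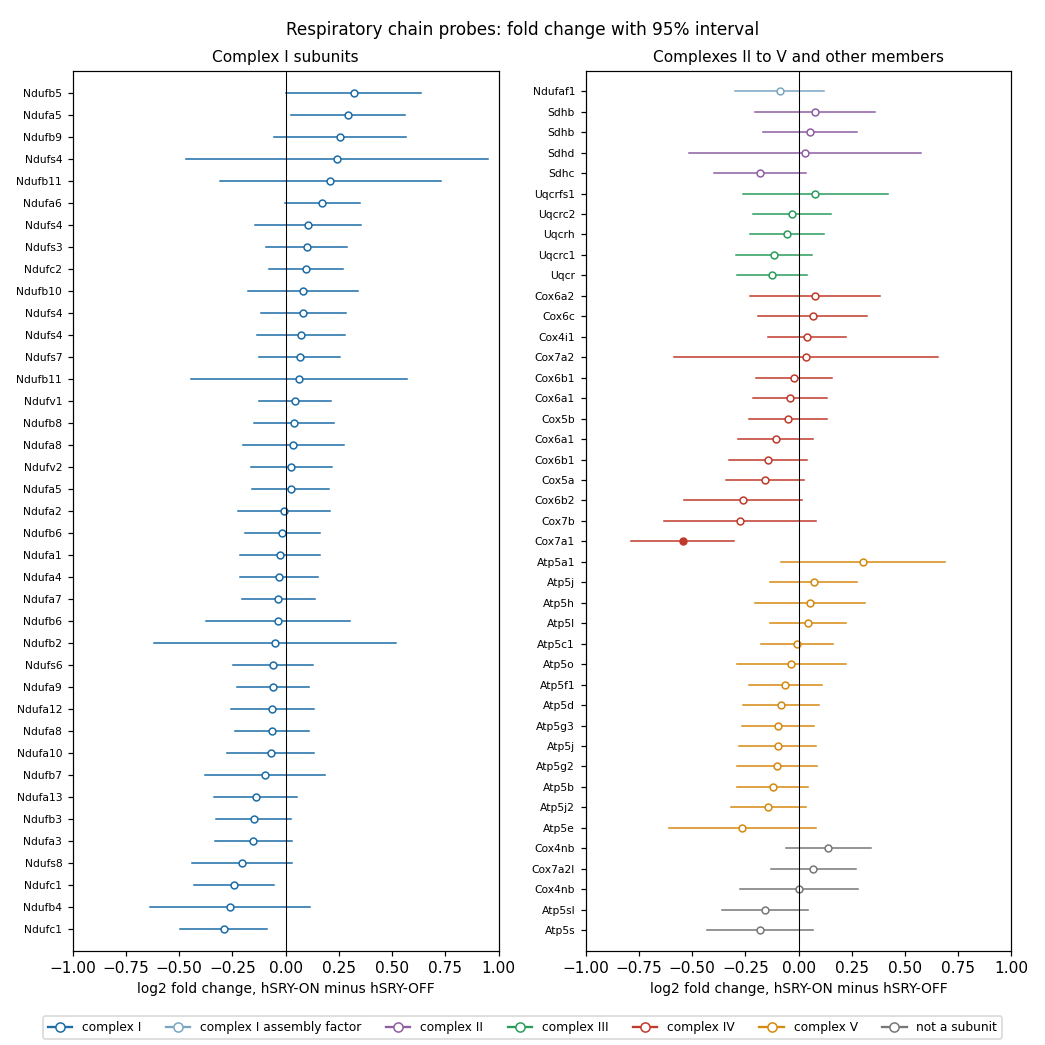
Log2 fold change (hSRY-ON minus hSRY-OFF, horizontal axis) of 81 of the 83 tested probes with its 95% confidence interval from limma, grouped by complex and named by gene symbol, so that a gene with several probes appears several times. The filled point is Cox7a1, the 1 probe called. The interval of most others crosses 0.

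The direction of the small differences was uneven. The hSRY-ON values lay wholly above or wholly below the hSRY-OFF values for 22 of the 83 probes (26.5%, against 27.7% of all tested probes). Of these, 4 were wholly higher (4.82%, against 13.5% of all) and 18 wholly lower (21.7%, against 14.2% of all). Over the 77 tested subunit probes alone, 3 were wholly higher (3.9%) and 18 wholly lower (23.4%), with a median log2 fold change of -0.030, and the fourth wholly higher probe was one of Cox4nb. The wholly lower probes were mostly those with strong signals. Among the 45 respiratory chain probes with a mean log2 signal of at least 12, a division made after the values were seen, 33 had a log2 fold change below 0, 16 were wholly lower (35.6%, against 16.6% of the 1144 probes this bright) and 2 wholly higher (4.44%, against 15.2%). Their median log2 fold change was -0.055, where that of all 1144 bright probes was -0.00034. Without Cox7a2l, the 1 of them that is no subunit, the median was -0.057 over 44 probes. The 38 dimmer probes had a median of 0.045, with 2 wholly higher and 2 wholly lower (5.26% each, against 13.4% and 14% of the 13071 tested probes this dim, whose median was 0.0053). The deposited intensities of the 45 bright probes ran from 4065 to 39092, below the highest intensity of any probe, 49293. With median scaling or cyclic loess in place of quantile normalization, 11 of the 45 were wholly lower in each case (against 16.5% and 16.1% of bright probes).

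**Figure D2:**
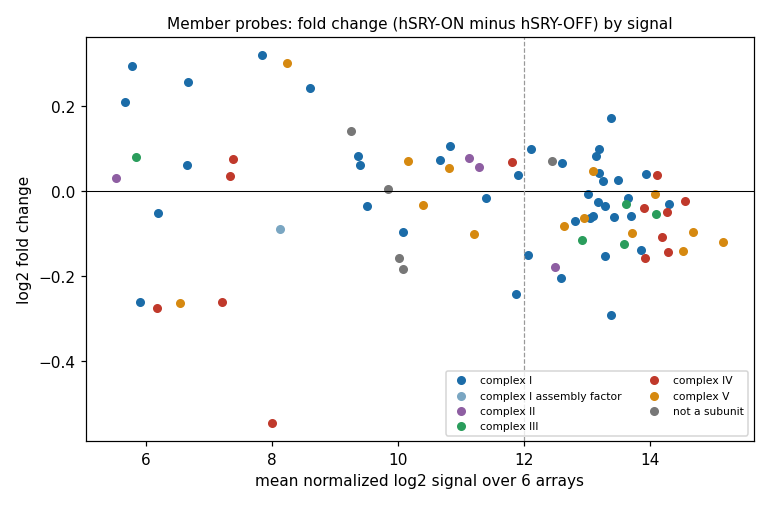
Log2 fold change (vertical axis) against mean normalized log2 signal over the 6 arrays (horizontal axis) for the 83 tested probes, coloured by complex, with a dashed line at a signal of 12. To the right of the line, 33 of 45 probes lie below 0, and to its left the points spread more widely to both sides.

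The shift was not the same on all hSRY-ON arrays. Taken as the median deviation of the 83 probes from the hSRY-OFF mean, it was -0.018 on the first, -0.0060 on the second and 0.032 on the third hSRY-OFF array, and -0.072, -0.066 and 0.0095 on the hSRY-ON arrays in the same order. hSRY-ON array 3 thus lay within the range of the hSRY-OFF arrays, and the groups overlapped. For the 14 complex V probes the values were -0.0215, -0.0072 and 0.020 in hSRY-OFF and -0.092, -0.086 and -0.032 in hSRY-ON, without overlap. The 5 complex III probes did not overlap either, with -0.0126 to 0.0125 in hSRY-OFF and -0.072 to -0.021 in hSRY-ON. The complex I, II and IV probes overlapped between the groups. The same figure for all tested probes stayed between -6e-04 and 0.0083 on every array. The bright probes kept a median below 0 without any one array, from -0.067 to -0.034.

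**Figure D3:**
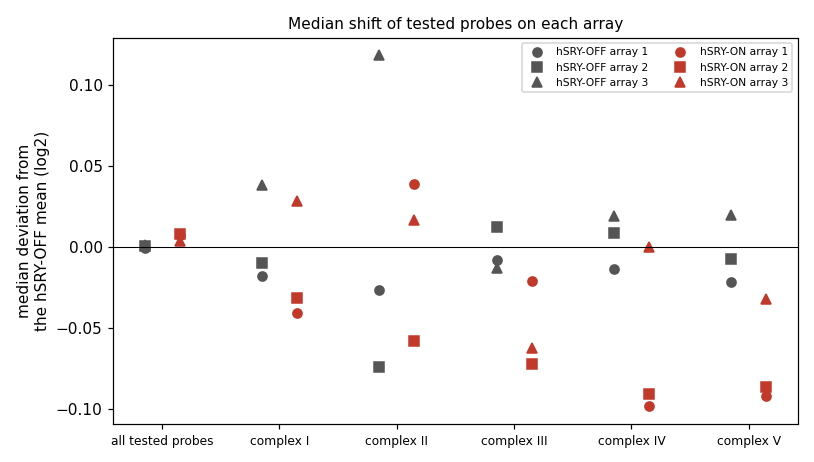
Median deviation of the tested probes of each complex from the hSRY-OFF mean (vertical axis, log2) on each of the 6 arrays, with symbols for arrays 1 to 3 and colours for the genotype. hSRY-ON array 3 lies nearest to the hSRY-OFF arrays in complexes IV and V, and the points of all tested probes lie at 0.

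Complex I had 41 tested subunit probes, the most of any complex. The limma test called 0 of them (against 2.17% of all tested probes), with 4 below 0.05 before adjustment (9.76%, against 20.9%). The median log2 fold change was -0.0077, with 20 probes above 0 and 21 below. The 7 probes of catalytic core subunits had a median of 0.042 and none of them was wholly higher or lower. Ndufv1, the subunit that oxidizes NADH, had log2 signals of 13.16, 13.16 and 13.18 in hSRY-OFF and 13.25, 13.17 and 13.21 in hSRY-ON. These groups overlapped, and its log2 fold change was 0.042 (95% confidence interval -0.13 to 0.21, limma adjusted p 0.782). Ndufs3 and Ndufs7 had 0.098 and 0.065, and Ndufs8, an iron-sulfur subunit, had -0.21 (limma adjusted p 0.291). Ndufs1, the largest iron-sulfur subunit, and Ndufab1, the mitochondrial acyl carrier protein, were below background on all 6 arrays at their only probe.

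The 34 probes of accessory complex I subunits had a median of -0.021, with 3 wholly higher (8.82%, against 13.5% of all tested probes) and 5 wholly lower (14.7%, against 14.2%). Ndufc1, a small accessory subunit of the membrane arm, had the lowest accessory value at 1 probe and a value of similar size at its other. Probe ILMN_1229975 gave log2 signals of 13.60, 13.53 and 13.44 in hSRY-OFF and 13.19, 13.18 and 13.34 in hSRY-ON. Probe ILMN_2983247 gave 11.98, 11.95 and 12.08 in hSRY-OFF and 11.74, 11.72 and 11.82 in hSRY-ON. All hSRY-ON values lay below all hSRY-OFF values at both probes. The log2 fold changes were -0.29 (SE 0.087, limma adjusted p 0.124) and -0.24 (SE 0.079, limma adjusted p 0.149), neither of them a call over all probes. Both probes passed it without background correction (adjusted p 0.0212 and 0.0405) and with a trended robust prior (0.00145 and 0.0174), and the adjusted p over all alternatives ran from 0.00145 to 0.280 and from 0.0174 to 0.321.

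Other accessory subunits had values on both sides of 0, and 0 of them passed the threshold. Ndufa6, an LYR-motif protein of the matrix arm, was picked out after its values were seen and had 13.33, 13.27 and 13.29 in hSRY-OFF and 13.47, 13.53 and 13.42 in hSRY-ON. These groups did not overlap, and the log2 fold change was 0.17 (SE 0.074, limma adjusted p 0.245). The largest positive values were those of Ndufb5, with 0.32 (limma adjusted p 0.238), and of the dim Ndufa5 probe ILMN_2691460, with 0.29 (0.201). The value of this Ndufa5 probe shrank to 0.081 without background correction, and the bright Ndufa5 probe ILMN_1216007 gave 0.023. Ndufb4 had -0.26 (limma adjusted p 0.398), which shrank to -0.082 without hSRY-OFF array 1 and to -0.080 without background correction. Ndufb8, often used as a marker of assembled complex I, had 0.039, and Ndufs4, whose loss causes Leigh syndrome, had 4 probes from 0.071 to 0.24, all on the same side and none past the threshold. Ndufa4, listed here by its symbol but now counted with complex IV, had -0.031. The assembly factor Ndufaf1 had -0.089 (limma adjusted p 0.613).

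Complex II, the succinate dehydrogenase shared with the citric acid cycle, had 4 tested probes with a median of 0.043. Sdhb, its iron-sulfur subunit, had 0.078 and 0.055 at its tested probes. Sdhc, a membrane anchor, had 12.57, 12.53 and 12.67 in hSRY-OFF and 12.29, 12.42 and 12.52 in hSRY-ON. Its hSRY-ON values lay below all hSRY-OFF values, with the highest of them close to the lowest hSRY-OFF value, and the log2 fold change was -0.18 (SE 0.092, limma adjusted p 0.309). Sdhd, the other anchor, had 0.030. The flavoprotein subunit Sdha was not analysed here.

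Complex III had 5 tested probes with a median of -0.055, and 4 of them were below 0. Uqcr (current symbol Uqcr11), a small subunit, had 13.64, 13.67 and 13.66 in hSRY-OFF and 13.55, 13.53 and 13.51 in hSRY-ON. Uqcrc1, a core protein on the matrix side, had 12.97, 13.00 and 12.97 in hSRY-OFF and 12.80, 12.88 and 12.92 in hSRY-ON. In both cases the hSRY-ON values lay below all hSRY-OFF values, by little. The log2 fold changes were -0.13 (SE 0.070, limma adjusted p 0.356) and -0.12 (SE 0.075, limma adjusted p 0.423). The other core protein, Uqcrc2, had -0.030, and Uqcrh, the hinge protein that docks cytochrome c1, had -0.055. Uqcrfs1, the Rieske iron-sulfur protein, had 0.078 at a dim probe, and Uqcrq was below background on all 6 arrays.

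Complex IV held the 1 called probe. Cox7a1 encodes the form of subunit 7a that predominates in heart and skeletal muscle. Its log2 signals were 8.30, 8.25 and 8.29 in hSRY-OFF and 7.54, 7.86 and 7.81 in hSRY-ON. All hSRY-ON values lay below all hSRY-OFF values, and the hSRY-ON arrays spread more, with 7.74 ± 0.17 (SD, n = 3) against 8.28 ± 0.023 (SD, n = 3). The log2 fold change was -0.54 (SE 0.10, 95% confidence interval -0.79 to -0.30, limma adjusted p 0.0497). The value stood next to the threshold, and the call was lost in 8 of 16 alternatives. Without hSRY-OFF array 1, 2 or 3 the adjusted p was 0.133, 0.138 and 0.134, and without hSRY-ON array 1, 2 or 3 it was 0.0987, 0.0780 and 0.0580. The direction was the same in all 16 alternatives, with log2 fold changes from -0.61 to -0.34 and adjusted p from 0.00673 to 0.138. Cox7a2, the form of the same subunit in most tissues, had 0.035 at a probe with a wide interval (-0.59 to 0.66).

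The 250 bases upstream of the Cox7a1 start are shown because it was the only respiratory chain gene called, with the limits given above. They are the plus-strand RefSeq sequence of GRCm38.p6, a C57BL/6J reference rather than the FVB/N strain of these mice, and none of the motifs named further on was found in them.
Cox7a1, chr7:30183921-30184170, plus strand: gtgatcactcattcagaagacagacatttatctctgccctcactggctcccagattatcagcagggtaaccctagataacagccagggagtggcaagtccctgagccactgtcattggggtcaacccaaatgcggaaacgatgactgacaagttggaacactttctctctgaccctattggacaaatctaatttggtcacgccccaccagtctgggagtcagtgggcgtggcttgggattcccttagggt

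Lists for cells in which muscle-type subunits could be found were read beside Cox7a1. Of the 8 skeletal muscle probes 4 were tested and 1 was called (25%, against 2.17% of all tested probes). This was Acta1, skeletal alpha-actin, at 0.43 (limma adjusted p 0.0479, a call lost in 9 of 16 alternatives, each fit without 1 array among them). Myl1, a myosin light chain, had -0.39 (0.188) with no overlap of the groups, the Myh8 probes had 0.021 and -0.12, and the Ckm probe was below background on all arrays. The summed level of the muscle list was 10.18 to 10.36 in hSRY-OFF and 10.36 to 10.52 in hSRY-ON. A list of 15 probes for pericytes and vascular smooth muscle, written after the values were seen, had 10 tested. Of these 6 were above 0, 4 below, and 1 called (10%, against 2.17% of all tested probes). This was Vtn, vitronectin, at -0.59 (limma adjusted p 0.0386, a call lost in 7 of 16 alternatives), while Pdgfrb, a defining pericyte receptor, had 0.0095. The summed level of this list was 12.33 to 12.40 in hSRY-OFF and 11.96 to 12.22 in hSRY-ON. The part of these cells in the Cox7a1 value was not tested.

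The other muscle, lung or testis forms were dim or below background. Cox6a2, the heart and muscle form of subunit 6a, was detected on all arrays with 7.10, 7.45 and 7.50 in hSRY-OFF and 7.30, 7.42 and 7.55 in hSRY-ON, which overlapped (log2 fold change 0.076, limma adjusted p 0.783). Cox6b2, the testis form of 6b, had -0.26 at its tested probe (limma adjusted p 0.259). Cox7b2, Cox8b and Cox8c were below background on all 6 arrays. Cox4i2, the lung form that is raised by low oxygen, was detected on 2 hSRY-OFF arrays and on 0 hSRY-ON arrays, with log2 signals of 5.29, 5.81 and 6.10 against 5.05, 4.79 and 5.18. Its probe was not well above background in hSRY-ON, and it was not tested because it did not pass the filter. The hSRY-OFF mean of 5.73 (SD 0.41) was 1.23-fold above the background level used for hSRY-ON, 5.44. That mean includes the undetected hSRY-OFF array at 5.29, which lay below this level. The ratio is therefore a rough estimate and not a lower limit of the difference. Ndufa4l2, another gene raised by low oxygen, was not analysed here.

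Over the whole of complex IV, with Cox7a1 and the other restricted forms, the 13 tested probes ran from -0.54 to 0.076 with a median of -0.050. Of these, 9 were below 0, 4 wholly lower (30.8%, against 14.2% of all tested probes) and 0 wholly higher. The remaining subunits serve all tissues. Cox4i1, the usual form of subunit 4, had 14.14, 14.05 and 14.07 in hSRY-OFF and 14.10, 14.08 and 14.19 in hSRY-ON, which overlapped, with a log2 fold change of 0.0375. Cox5a, a nuclear-encoded subunit on the matrix side, had 13.97, 13.94 and 14.08 in hSRY-OFF and 13.81, 13.83 and 13.87 in hSRY-ON. The groups did not overlap, and the log2 fold change was -0.16 (SE 0.078, limma adjusted p 0.297). Cox5b had -0.050, Cox6c 0.067, Cox7b -0.28 at a dim probe, and Cox6a1 -0.11 and -0.041. The Cox7b value was -0.17 without hSRY-OFF array 2 and -0.45 without hSRY-OFF array 3, and the weaker Cox6a1 value was -0.013 with hSRY-ON array 1 left out and -0.062 with hSRY-ON array 3 left out. Cox6b1, picked out after its values were seen, had -0.14 and -0.023, and the weaker of these values turned to 0.016 with median scaling and 0.019 with cyclic loess.

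Complex V, the ATP synthase, had a median of -0.073 over 14 probes, with 10 below 0, 6 wholly lower (42.9%, against 14.2% of all tested probes and 16.6% of the bright ones) and 0 wholly higher. The limma test called 0 of them, and 0 were below 0.05 before adjustment. Atp5b, the catalytic beta subunit, had 15.21, 15.21 and 15.24 in hSRY-OFF and 15.09, 15.12 and 15.08 in hSRY-ON. Atp5j2, subunit f of the membrane part, had 14.62, 14.59 and 14.59 in hSRY-OFF and 14.41, 14.44 and 14.52 in hSRY-ON. Both sets of values were tight and did not overlap. The log2 fold changes were -0.12 (SE 0.071, limma adjusted p 0.373) and -0.14 (SE 0.074, limma adjusted p 0.321). Atp5g3, which encodes a copy of the ring subunit c, had -0.096, and Atp5g2 had -0.10. Beside Atp5b, Atp5j2 and Atp5g3, the wholly lower probes were those of Atp5d, with -0.083, Atp5f1, with -0.063, and the brighter probe of Atp5j, with -0.099, whose other tested probe had 0.070. The catalytic alpha subunit gene Atp5a1 had 0.30 at a dim probe whose groups overlapped (8.30, 7.73 and 8.24 in hSRY-OFF, 8.45, 8.24 and 8.47 in hSRY-ON, limma adjusted p 0.338), and 0.12 without hSRY-OFF array 2. Atp5c1, the rotating gamma subunit, had -0.0066, a value that turned to 0.022 with median scaling and 0.027 with cyclic loess, Atp5e had -0.26 at a dim probe, and Atp5k was below background on all 6 arrays.

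**Figure D4:**
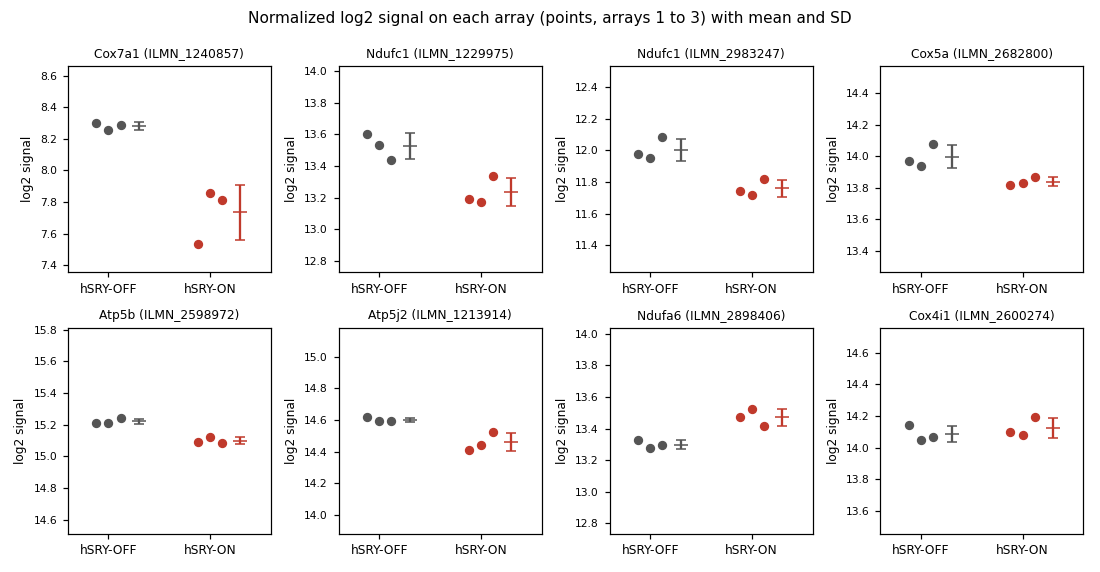
Normalized log2 signal (vertical axes, each spanning the same 1.3 units) of 8 probes on each hSRY-OFF (grey) and hSRY-ON (red) array, with the mean and SD of 3 arrays beside the points. The groups separate at Cox7a1 by more than at any of the others shown, separate narrowly at Ndufc1, Cox5a, Atp5b, Atp5j2 and Ndufa6, and overlap at Cox4i1.

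With a trend and a robust prior for the spread, which lends bright probes a smaller error, 8 probes were called, 7 lower (Cox7a1, Cox5a, Cox6b1, Atp5b, Atp5j2 and both probes of Ndufc1) and 1 higher (Ndufa6). This was 9.64% of the 83 probes, against 10.2% of all tested probes under the same prior. Without background correction 3 were called (3.61%, against 9.26%), which were Cox7a1 and both probes of Ndufc1, all lower. In 12 symbols with more than 1 tested probe, the probes of 9 lay on the same side of 0 and those of 3 (Atp5j and Ndufa8 among them) on both sides. The 4 symbols that are not subunits had 5 tested probes with a median of 0.0039, and none was called. Cox7a2l, which joins complexes III and IV into supercomplexes, had 0.069. Cox4nb (current symbol Emc8), part of a complex of the endoplasmic reticulum, had 0.14 and 0.0039. Atp5s (also called coupling factor B) had -0.18 (limma adjusted p 0.369) and Atp5sl had -0.16 (0.343).

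The other mitochondrial lists were read with the same fit. Assembly factors of complexes II to V had 18 tested probes, with 1 called (5.56%, against 2.17% of all tested probes) and 6 under 0.05 before adjustment (33.3%, against 20.9%). The called probe was that of Bcs1l, which inserts the Rieske protein into complex III, with 10.04, 10.01 and 10.04 in hSRY-OFF and 9.54, 9.62 and 9.49 in hSRY-ON. The groups did not overlap, and Bcs1l fell by 0.48 on the log2 scale (SE 0.076, limma adjusted p 0.0348). This call was lost in 7 of 16 alternatives, namely with the replicate block (limma adjusted p 0.110), with no filter on dim probes and without any one array other than hSRY-ON array 3, while the log2 fold change stayed between -0.52 and -0.41. The mitochondrial ribosome, which translates the subunits encoded in mitochondrial DNA, had 88 tested probes with a median of -0.058, 29 above and 59 below 0, 14 under 0.05 before adjustment (15.9%) and 1 called (1.14%), Mrpl51, which fell by 0.70 on the log2 scale (SE 0.12, limma adjusted p 0.0386). The call was lost in the same 7 alternatives as that of Bcs1l, with log2 fold changes from -0.76 to -0.30. The regulators of mitochondrial biogenesis had 11 tested probes, with 2 under 0.05 before adjustment (18.2%) and 1 called (9.09%), Gabpb1, the partner subunit of the ETS factor that binds many respiratory chain promoters, which fell by 0.56 on the log2 scale (SE 0.10, limma adjusted p 0.0479). Its call was lost in those 7 and with median scaling, 8 of 16 in all, with log2 fold changes from -0.64 to -0.29. In that list Ppargc1a, the coactivator of mitochondrial biogenesis, had 0.093 (limma adjusted p 0.643) and Nrf1 had 0.012 (0.962).

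The limma test called 0 probes of the 5 other lists. Before adjustment, p was under 0.05 for 3 of 32 probes of electron carriers and transporters, 3 of 19 of the TCA cycle, 8 of 31 of import and the outer membrane, 3 of 17 of mitochondrial DNA upkeep and 4 of 27 of glycolysis, where the share over all tested probes was 20.9%. Their medians were -0.034, -0.10, -0.0069, 0.032 and 0.037, in that order. The TCA cycle, which feeds electrons into complexes I and II, had 14 of 19 probes below 0 (against 48.9% of all tested probes) and 7 wholly lower (36.8%, against 14.2%), and Cs, citrate synthase, had -0.10 (limma adjusted p 0.564). Cycs, the carrier cytochrome c, had -0.17 and 0.16 at its probes, and Vdac1, the main channel of the outer membrane, had -0.11 (0.502). Tfam, which packages mitochondrial DNA, had 0.25 (0.234) and -0.038 (0.840). In glycolysis 16 of 27 probes were above 0.

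**Figure D5:**
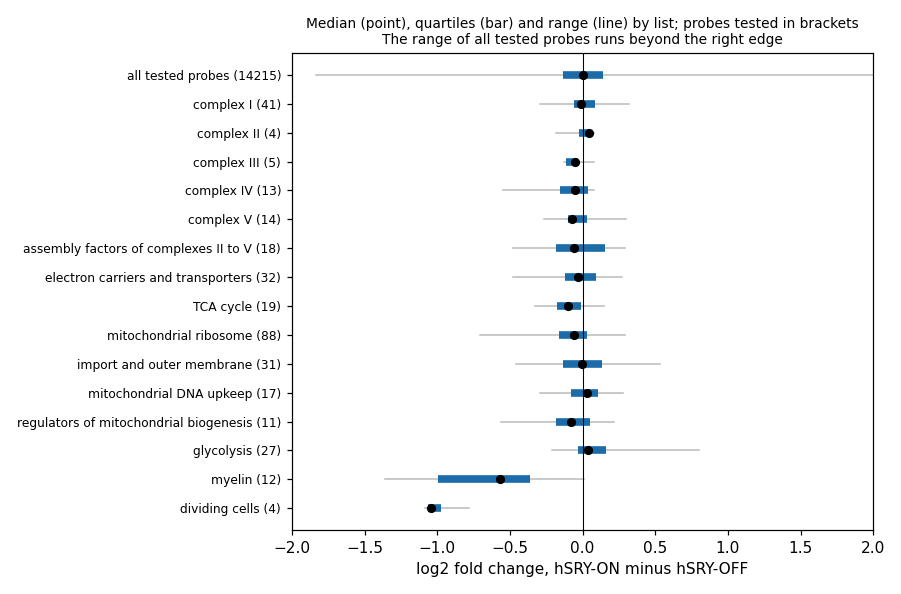
Median (point), quartiles (bar) and range (line) of the log2 fold change, hSRY-ON minus hSRY-OFF, for all tested probes, the 5 complexes, 8 further metabolic lists and, for scale, the myelin and dividing-cell markers, with the number of tested probes in brackets. The medians of the 5 complexes lie between -0.073 and 0.043, whereas those of the myelin and dividing-cell markers lie well to the left.

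The promoters of the genes were read for shared sequence, since the small differences were spread over many genes. RefSeq promoter windows of 300 bases (250 before the start and 50 from it on, GRCm38.p6) were matched for 63 of the 77 symbols, and exact matches on both strands were counted. The NRF1 motif GCGCATGCG was held by 7 of the 63 (11.1%) and by 1.95% of 27025 promoters. The YY1 motif AANATGGCG was held by 11 (17.5%, against 2.76%), the ETS motif CCGGAAGT by 4 (6.35%, against 4.31%) and the TATA box TATAAA by 7 (11.1%, against 15.7%). AACAAT, the core that SRY proteins bind, which was searched after the values were seen, was held by 5 (7.94%, against 12.2%). The log2 fold changes of genes with and without a match were set side by side, with no test. The median log2 fold change was -0.082 over 8 tested probes with the NRF1 motif and -0.035 over 63 without, -0.035 over 17 with the YY1 motif and -0.045 over 54 without, -0.00089 over 4 with the ETS motif and -0.041 over 67 without, -0.035 over 5 with the TATA box and -0.045 over 66 without, and -0.071 over 5 with AACAAT and -0.039 over 66 without.

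Stretches of 30 bases around the match are shown for the 6 tested genes with the NRF1 motif, of which Atp5l had 0.045 and Ndufa8 a probe on each side of 0, while the probes of the other genes were below 0. Capitals mark the match, which reads CGCATGCGC where it lies on the opposite strand, and each stretch is printed 5′ to 3′ on the strand of the gene.
Uqcr, chr10:80406807-80406836, minus strand: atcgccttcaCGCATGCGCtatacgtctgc
Uqcrc1, chr9:108936668-108936697, plus strand: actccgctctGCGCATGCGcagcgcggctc
Cox6a1, chr5:115349101-115349130, minus strand: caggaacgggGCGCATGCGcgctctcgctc
Atp5g2, chr15:102671070-102671099, minus strand: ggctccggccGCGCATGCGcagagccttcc
Atp5l, chr9:44920963-44920992, minus strand: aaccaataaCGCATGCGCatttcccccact
Ndufa8, chr2:36049328-36049357, minus strand: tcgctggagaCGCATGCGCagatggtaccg

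The YY1 match is shown for Ndufc1, Atp5b and Atp5j2, whose hSRY-ON values lay wholly below those of hSRY-OFF, and for Ndufs4, whose probes lay above 0, with the match again in capitals. In Atp5b it lies on the opposite strand. These genes were picked by their values from the 11 with the motif. Not shown are Ndufb11 and Ndufs7, with probes above 0, and Atp5j, with a probe on each side. Ndufa7, Ndufa9, Ndufs6 and Atp5sl, with probes below 0, are not shown either.
Ndufc1, chr3:51408914-51408943, minus strand: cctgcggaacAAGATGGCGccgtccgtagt
Atp5b, chr10:128083313-128083342, plus strand: acccggattcCGCCATGTTgagtcttgtgg
Atp5j2, chr5:145191499-145191528, minus strand: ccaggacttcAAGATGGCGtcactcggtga
Ndufs4, chr13:114388045-114388074, minus strand: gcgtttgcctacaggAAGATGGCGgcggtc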

How the data were processed

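The authors extracted RNA from whole brain and deposited, for each probe and array, a mean bead signal intensity and a detection p-value. The deposited intensities were linear and not quantile normalized. The study names TCC, and the submitters' processing notes limma, without settings, and TCC was not used here. In R 4.3.3 with limma 3.58.1, negative-control moments were derived from the deposited detection p-values, and the signals were then background-corrected by normexp (offset 16), put on the log2 scale and quantile normalized. This correction makes dim probes vary more. Probes detected (p below 0.05) on 3 or more of 6 arrays were fitted with lmFit and eBayes (group as the only term, two-sided, Benjamini-Hochberg over 14215 probes, call at an adjusted p under 0.05), and every adjusted p is from this fit unless another is named. Probes of 1 gene were kept apart. The steps were tested on simulated data.

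The groups and replicate numbers came from the labels. The authors' probe symbols were kept, and 72 of the 77 respiratory chain symbols matched the RefSeq table of GRCm38.p6 as current symbols and 5 as synonyms. The genes, lists and motifs were chosen with earlier results of these data known. The genes named by rule were called probes, the 2 highest and 2 lowest log2 fold changes of each complex, 16 fixed subunits (1 of them not reported here) and 8 isoforms of restricted expression, and, of other lists, called probes and Ppargc1a, Tfam, Nrf1, Cs, Cycs and Vdac1; further genes were named after their values were seen. The precision is limited by 3 arrays per group. Alternatives were other background corrections, normalizations, filters, priors, array weights, a replicate block, 1 probe per symbol and leaving out each array. The plots used matplotlib 3.10.9 (Python 3.11.15).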

Additional observations from a re-analysis of the deposited data

How the results depend on the processing

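The number of called respiratory chain probes moved from 1 to 3 without background correction, to 8 with a trended robust prior, to 0 with no filter on dim probes, to 0 with the replicate block and to 0 in each fit that left out an array (range 0 to 0). Over all tested probes the counts were 308, 1317, 1447, 123, 0 and 0 to 417 in the same order. With the replicate block 5 of the 83 probes had an unadjusted p under 0.05, as without it, and 4 probes were shared between the fits. The deviations of same-numbered arrays correlated at 0.040, 0.029 and 0.025, and those of differently numbered arrays at -0.023 to -0.005. Values this small from 3 arrays per group cannot decide whether the numbers mark pairs, and the labels do not say. The main fit treated the arrays as unpaired. The median over the tested respiratory chain probes stayed below 0 in all 16 alternatives, from -0.046 to -0.012. These probes numbered 95 with no filter on dim probes, 76 with detection at 0.01 on all 6 arrays, 69 with 1 probe per symbol and 83 otherwise. By complex, the fits that left out an array gave medians of -0.0073 to 0.045 for complex I (highest without hSRY-OFF array 3), -0.087 to 0.11 for II (lowest with hSRY-OFF array 2 left out), -0.081 to -0.046 for III, -0.10 to -0.033 for IV (lowest without hSRY-ON array 3) and -0.091 to -0.055 for V, so that the order of the medians of III, IV and V changed between settings. The median of complex III was -0.086 both with no filter on dim probes and with detection at 0.01 on all 6 arrays. Among the named probes, 0 of those whose direction turned passed the threshold in any alternative. They included Atp5c1 (0.022 with median scaling, 0.027 with cyclic loess), Cox6b1 (0.016 and 0.019), the bright Ndufa5 probe (-0.0030 with median scaling) and Cox7a2 (-0.035 with array weights). With 1 array left out, the values that turned included those at the Sdhb probes (from -0.024 to 0.16 and from -0.024 to 0.11), and values ran from -0.053 to 0.23 for Uqcrfs1, -0.049 to 0.15 for Cox6a2, -0.0037 to 0.14 for Cox6c, -0.025 to 0.0042 for Atp5c1, -0.19 to 0.32 for Cox7a2, -0.0029 to 0.081 for Ndufb8 and -0.070 to 0.00098 for Uqcrc2. Others kept their direction and moved by over 1.5 times, among them Ndufb5 (0.20 without hSRY-ON array 3), Sdhc (-0.12 without hSRY-ON array 1), Atp5e (-0.15 without hSRY-OFF array 2 and -0.40 when hSRY-OFF array 1 was left out), Cox6b2 (-0.17 without hSRY-OFF array 1), Ndufaf1 (-0.037 without hSRY-ON array 3) and Cox4i1 (0.0027 without hSRY-ON array 3). The cause of these changes was not tested. Closeness to the background limits what the dim probes of Ndufb2, Ndufb11, Sdhd, Cox7a2 and Atp5e can show.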
